A study of Arabidopsis thaliana with 18 samples.

Results

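The genes described here are those whose mRNA stood higher in Arabidopsis thaliana embryos at the 8-cell or 16-cell stage than at the 2/4-cell, globular and heart stages. A gene was a member when the larger of its 8-cell and 16-cell mean was at least 10 TPM and at least 2.5 times each of its 2/4-cell, globular and heart means. They were thus selected on the deposited TPM values themselves, where TPM scales a gene's estimated transcripts to a fixed total in each library. Among 27564 genes with deposited values, 52 met this rule, with plastid-encoded and mitochondrion-encoded genes left out. The study profiled whole embryos isolated by hand at 6 stages, with 3 libraries each and 18 in all: 2/4-cell, 8-cell, 16-cell and 32-cell embryos, then globular and heart stage embryos. All plants grew in one kind of chamber, and the labels name no treatment. The labels used here give neither the number of embryos per library nor whether replicates came from separate plants, and p values therefore measure only the spread between these libraries.

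In the stages concerned, the apical part of the embryo first consists of a ball of cells that all touch the surface. Divisions parallel to the surface then separate the protoderm, the future epidermis, from inner cells, and the inner cells in turn give rise to the first vascular and ground tissue precursors. Auxin and cytokinin signalling, HD-ZIP transcription factors and brassinosteroids are among the regulators known to act in vascular patterning. Whole embryos also include the suspensor, the file of cells that connects the embryo to the surrounding tissue.

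The rule itself used the 8-cell, 16-cell, 2/4-cell, globular and heart values. Differences of the 8-cell and 16-cell stages from the 2/4-cell, globular and heart stages are therefore given as a description with no test. It did not use the 32-cell libraries. Consecutive stages from 8-cell to globular are compared by a fit over all tested genes, in which at least one stage of each pair was used by the rule. The larger of the 8-cell and 16-cell means ran from 10.1 to 2480.5 TPM with a median of 25.8 TPM. It was 2.52 to 11.4 times the largest of the other 3 means, with a median of 2.89 times. That largest mean was the 2/4-cell one in 30 members, the globular one in 16 and the heart one in 6. The median TPM of the 52 members lay between 5.06 and 5.74 in the 2/4-cell libraries, between 11.9 and 16.8 in the 8-cell ones and between 19.6 and 25.4 in the 16-cell ones. It lay between 13.4 and 15.05 in the 32-cell libraries, between 4.71 and 6.65 in the globular ones and between 2.84 and 3.87 in the heart ones.

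The label of a group transient at the 8-cell and 16-cell stages held for only part of the 52 members. In 31 of the 52, the 32-cell mean was 50% or more of the larger of the 8-cell and 16-cell means. In 16 members it was under 40% of that mean. Over all 6 stages, the mean was highest at 8-cell in 13 members and at 16-cell in 27. The other 12 had it at 32-cell, the stage the rule left out, where their means were 105% to 341% of the larger of the 8-cell and 16-cell means. Members with the highest mean at 8-cell stood at a median of 20.9% of that mean at 32-cell, and those with the highest mean at 16-cell at a median of 52.1%. In 25 members the smaller of the 8-cell and 16-cell means was 50% or more of the larger.

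**Figure D1:**
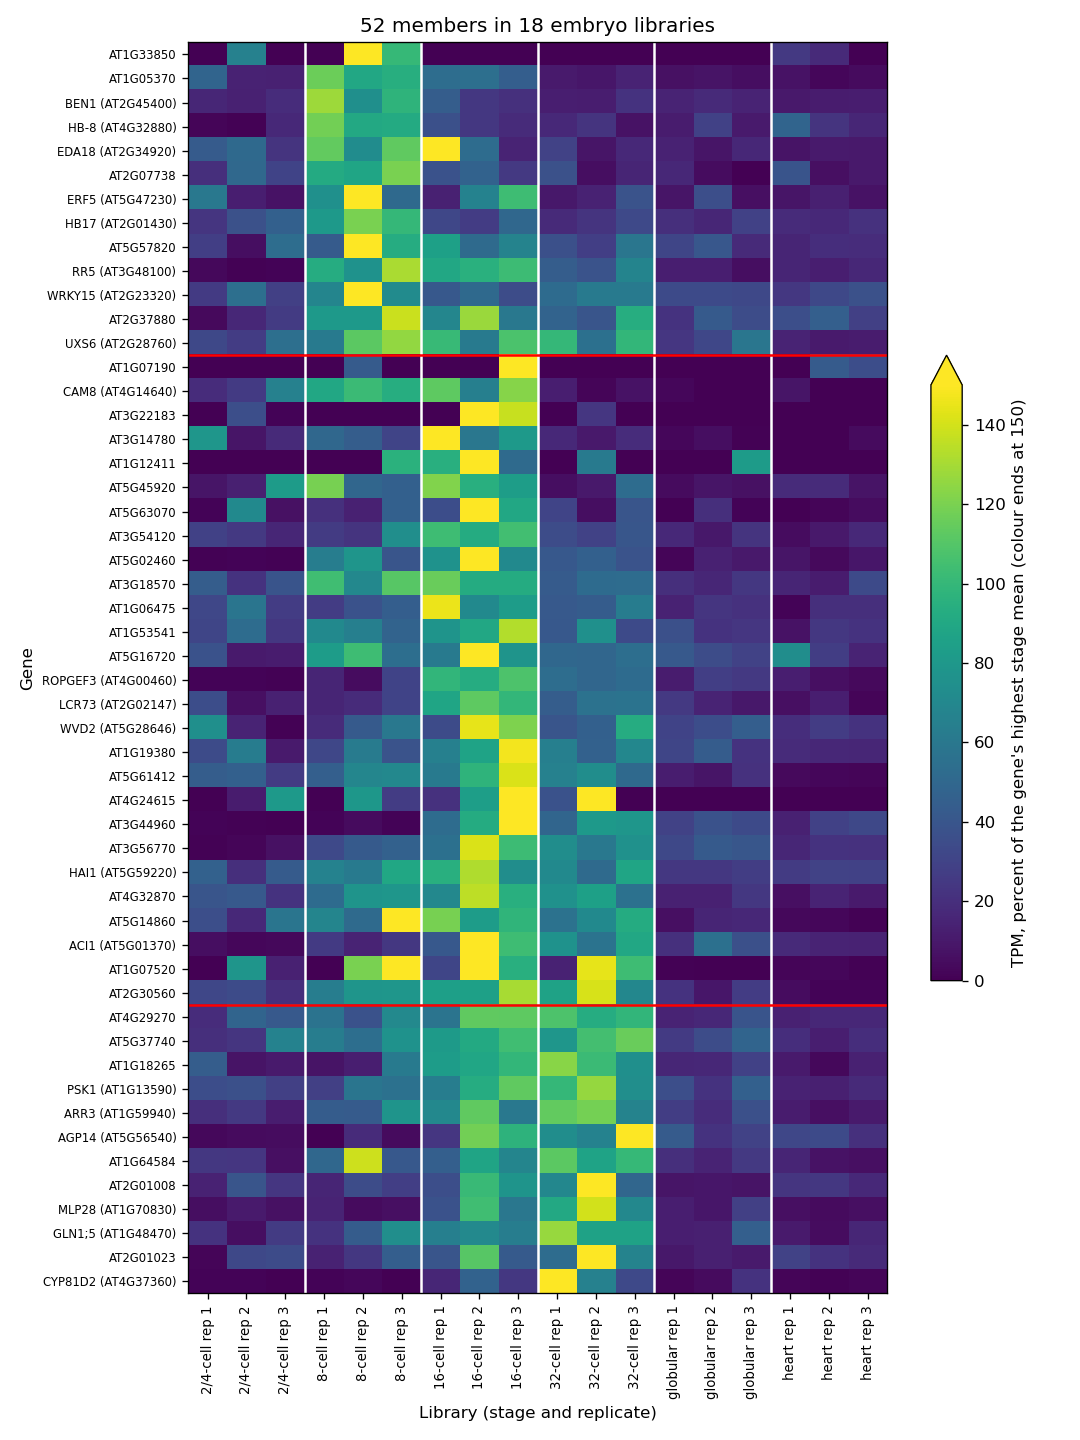
Rows are the 52 members, columns the 18 libraries in order of stage, and colour is TPM as a percentage of the gene's highest stage mean, with the colour scale ending at 150. Red lines separate, from the top, the 13 members with their highest mean at 8-cell, the 27 with it at 16-cell and the 12 with it at 32-cell. The brightest cells of the bottom block lie in the 32-cell columns, and single bright cells in otherwise dark rows mark members that rest on 1 library.

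Membership leaned on single libraries. Leaving out any 1 of the 18 libraries in turn, 12 members met the rule every time and 40 failed it at least once. In 35 members all 3 libraries of the higher stage lay above all 9 libraries of the 2/4-cell, globular and heart stages, against 2.05% of 18338 tested genes, a share that the choice of members fixes. AT1G07190, listed as a Lon protease, was a member through 1 library, with 0, 0 and 54.3 TPM at 16-cell and 0, 7.75 and 0 TPM at 8-cell. AT3G22183, of unknown function, and AT1G33850, a ribosomal protein S19 family gene, were each listed at 0 in 1 library of their higher stage. AT3G22183 had 0, 16.8 and 14.1 TPM at 16-cell, and AT1G33850 had 0, 27.9 and 14.05 TPM at 8-cell and 0 in all 16-cell, 32-cell and globular libraries.

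Near the thresholds, AGP14 (ratio 2.52), AT5G37740 (2.53), AT1G06475 (2.57), EDA18 (2.58) and AT5G61412 (2.58) were members, while ENODL16 (2.47), AT1G67920 (2.46), SYTC (2.44), AT1G53430 (2.41) and AT5G24790 (2.41) were not. Likewise AT1G19380 (10.1 TPM), AT3G22183 (10.3 TPM) and CYP81D2 (10.5 TPM) were members, and AT1G77855 (9.69 TPM), AT5G52490 (9.63 TPM) and JAZ3 (9.23 TPM) were not.

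Replicate libraries were least alike at 2/4-cell, with Pearson's r over 18338 genes of 0.884 to 0.900, against 0.929 to 0.953 at 16-cell and 0.968 to 0.981 at heart. Among the 16-cell libraries, replicate 3 correlated least with the 8-cell mean profile (r = 0.943) and with the 32-cell mean profile (r = 0.935). Without it 49 genes met the rule, 40 of them among the 52. Markers of other seed tissues were also uneven. The summed TPM of 19 seed coat markers lay between 459 and 1718 in the 2/4-cell libraries, between 68.9 and 129 in the 8-cell ones and between 53.6 and 72.1 in the 16-cell ones. It lay between 132 and 409 in the 32-cell libraries, with replicate 2 the highest, and between 156 and 168 in the globular and heart ones. Single markers did not all follow the sum. Of the 19, 17 had a higher mean at 2/4-cell than at 16-cell and 18 at 32-cell, but 13 at globular and 12 at heart. The sum of 13 endosperm markers was 118 TPM in 2/4-cell replicate 3 and at most 8.53 TPM in every other library, and no gene of either list was a member. The sum of 4 suspensor markers lay between 126 and 257 TPM in 8-cell and between 116 and 190 TPM in 16-cell libraries. It lay between 67.1 and 133 TPM in 2/4-cell, between 96.7 and 107 TPM in 32-cell, and at or below 77.7 TPM in globular and heart libraries. Single suspensor markers differed. WOX8 and WOX9 had their highest mean at 8-cell, but PIN7 had it at 32-cell (10.6 TPM) and HDG11 at globular (20.1 TPM). The part of these tissues in the members' courses was not tested. The sum of 10 embryo markers, such as WOX2, ATML1 and PDF1, was 1080.8 to 4924 TPM. A large part of it was PDF1, with means from 376 TPM at 2/4-cell to 3274 TPM at globular. The mean of WOX2 fell from 166 TPM at 8-cell to 19.3 TPM at heart. WOX8 and WOX9 are in both the embryo and the suspensor sum. In whole embryos, fewer cells that express a gene and less RNA per cell cannot be told apart.

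Transcription and response regulators made up 9 members. Of these, 5 had their highest mean at 8-cell, 3 at 16-cell and 1 at 32-cell, and the Dof gene, RR5 and HB-8 met the rule whichever 1 library was left out. The gene with the largest ratio of all 52 was AT5G02460, annotated as a Dof-type zinc finger DNA-binding protein, a plant-specific class of transcription factor. It stood at 0.234, 0.379 and 0.184 TPM at 2/4-cell, then 17.5, 21.4 and 10.9 at 8-cell, 20.9, 41.8 and 19.4 at 16-cell, 11.3, 12.5 and 10.5 at 32-cell, 0.625, 3.80 and 2.77 at globular, and 2.27, 0.989 and 2.45 at heart. The 8-cell, 16-cell and 32-cell libraries all lay above every 2/4-cell, globular and heart library.

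RR5 (AT3G48100), also named ARR5, and ARR3 (AT1G59940) encode type-A response regulators, which are induced by cytokinin and dampen its signalling. RR5 stood at 0.414, 0.106 and 0.174 TPM at 2/4-cell, then 12.6, 10.4 and 17.8 at 8-cell, 12.2, 12.9 and 13.99 at 16-cell, 6.01, 5.20 and 9.19 at 32-cell, 1.68, 1.72 and 0.739 at globular, and 2.11, 1.69 and 2.30 at heart. Its 8-cell and 16-cell libraries overlapped, and those of the 32-cell stage lay between them and every globular and heart library. ARR3 had 9.33, 11.5 and 5.51 TPM at 2/4-cell, 20.1, 19.9 and 35.7 TPM at 8-cell, 32.1, 52.1 and 27.4 TPM at 16-cell and 52.4, 54.4 and 30.8 TPM at 32-cell. It was one of the members with the highest mean at 32-cell, although the 16-cell and 32-cell libraries overlapped.

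HB-8 (AT4G32880), known as ATHB8, encodes an HD-ZIP III transcription factor that marks cells of the early vascular lineage. It stood at 0.265, 0.0868 and 2.17 TPM at 2/4-cell, then 14.9, 11.4 and 11.6 at 8-cell, 4.66, 3.08 and 2.33 at 16-cell, 2.16, 2.82 and 0.942 at 32-cell, 1.45, 3.64 and 1.40 at globular, and 6.11, 2.86 and 2.07 at heart. The 3 8-cell libraries alone were above 11 TPM, and no other library exceeded 6.11 TPM. HB17 (AT2G01430), an HD-ZIP gene of another class, had 10.1, 16.1 and 20.01 TPM at 2/4-cell, 34.9, 51.9 and 43.4 TPM at 8-cell, 13.8, 11.6 and 21.7 TPM at 16-cell and 7.71, 9.71 and 14.3 TPM at 32-cell. Its 8-cell libraries lay above all others. Both homeobox members thus had their highest mean at 8-cell. Homeobox genes made up 3.85% of the members (2 genes) and 0.769% of nuclear genes in the table, untested ones included. This was 1 of many families looked at, and nothing is read from the share.

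The WRKY transcription factor gene WRKY15 (AT2G23320) had 50.05, 117 and 53.03 TPM at 8-cell, where replicate 2 was far above the others, and 38.6, 44.9 and 44.9 TPM at 32-cell, against 30.1, 37.7 and 25.6 TPM at 16-cell. ERF5 (AT5G47230), an ethylene response factor gene that responds to stress, had 8.08, 18.6 and 5.50 TPM at 8-cell and 1.46, 7.13 and 11.1 TPM at 16-cell. These overlapped with 2/4-cell replicate 1, at 6.43 TPM. ERF5 belongs to a list of 20 wounding and touch genes whose summed TPM lay between 351 and 423 in 2/4-cell, 323 and 345 in 8-cell, and 133 and 211 in 16-cell libraries, and its relation to the isolation of embryos was not tested. The GRAS family gene AT1G07520 varied within stages, with 0, 14.4 and 21 TPM at 8-cell, 3.75, 20.9 and 11.4 TPM at 16-cell and 1.76, 17.3 and 12.4 TPM at 32-cell. In the globular and heart libraries it did not exceed 0.332 TPM. The bHLH gene AT3G56770 had means of 1.02 ± 0.932 TPM at 2/4-cell, 12.5 ± 2.10 at 8-cell, 30.7 ± 13.2 at 16-cell and 21.4 ± 2.57 at 32-cell (SD, n = 3).

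**Figure D2:**
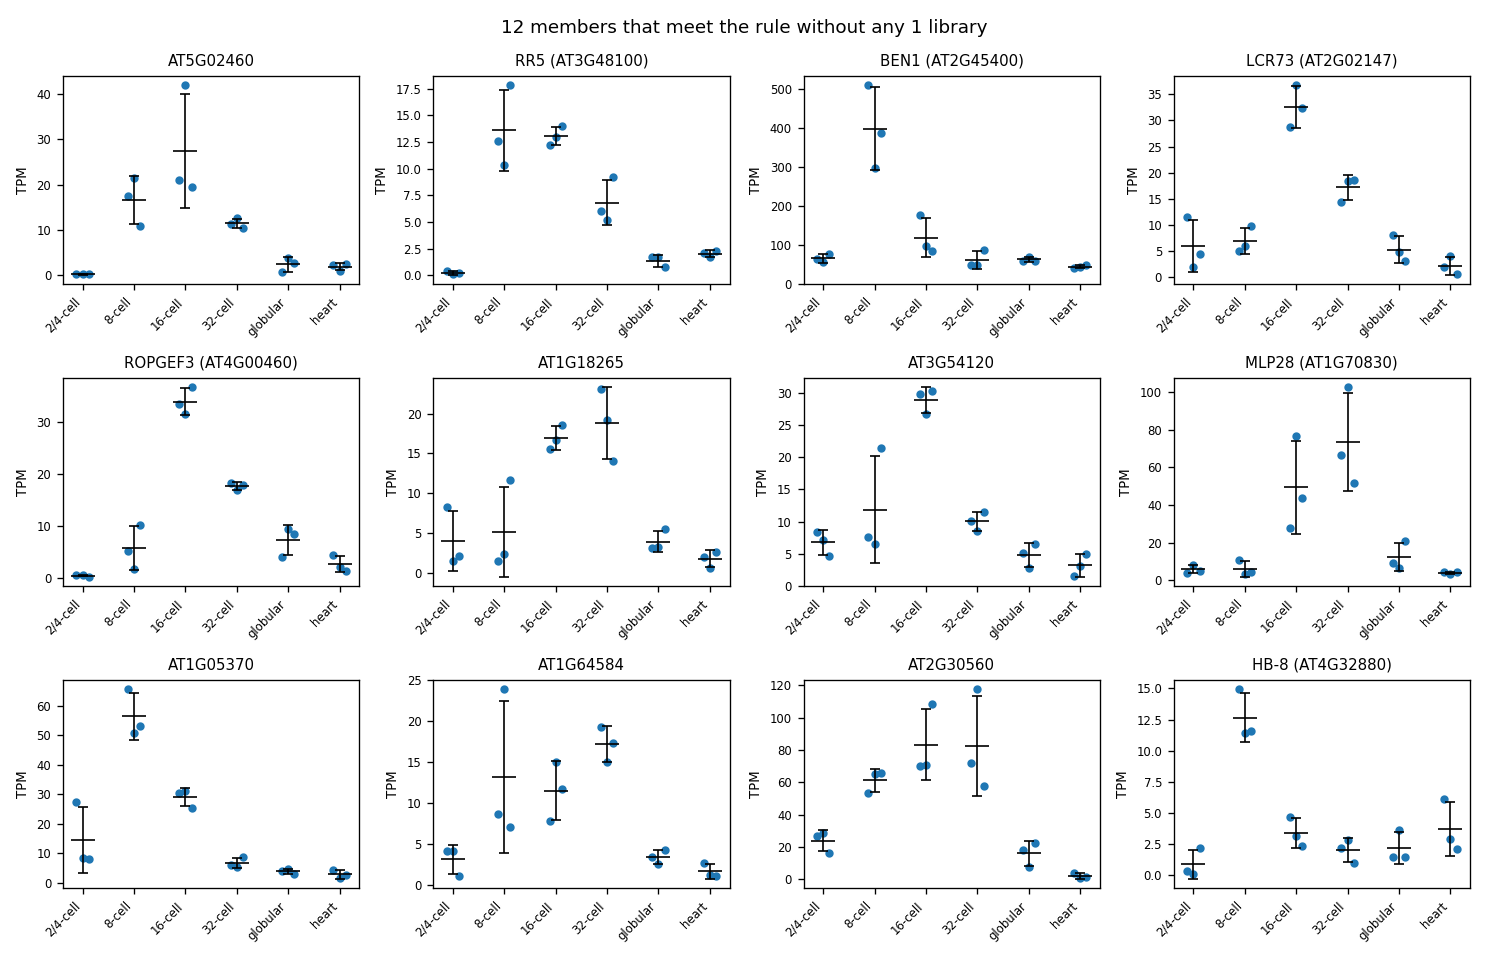
TPM of the 12 members that met the rule whichever 1 library was left out, by stage, with 1 dot per library and bars for mean ± SD (n = 3). BEN1, HB-8 and AT1G05370 were highest at 8-cell, LCR73, ROPGEF3 and AT3G54120 at 16-cell, and MLP28, AT1G18265 and AT1G64584 had their highest mean at 32-cell.

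Genes of hormone, peptide and other signalling made up 7 members, and BEN1, LCR73 and ROPGEF3 among them met the rule whichever 1 library was left out. BEN1 (AT2G45400) encodes a reductase-like enzyme that lowers the level of active brassinosteroids, and its mean of 398 ± 106 TPM at 8-cell (SD, n = 3) was the highest in this group. It stood at 64.2, 55.4 and 76.5 TPM at 2/4-cell, then 509, 298 and 387 at 8-cell, 176, 96.7 and 83.5 at 16-cell, 49.02, 48.9 and 87.7 at 32-cell, 59.2, 70.05 and 59.7 at globular, and 39.8, 44.7 and 48.2 at heart. The 8-cell libraries lay above all others, and 16-cell libraries above those of the 2/4-cell, globular and heart stages.

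ROPGEF3 (AT4G00460) encodes an activator of ROP GTPases, which act in cell polarity. It stood at 0.458, 0.502 and 0.200 TPM at 2/4-cell, then 5.23, 1.67 and 10.2 at 8-cell, 33.6, 31.6 and 36.8 at 16-cell, 18.3, 16.9 and 17.9 at 32-cell, 3.94, 9.41 and 8.46 at globular, and 4.31, 2.14 and 1.36 at heart. The 16-cell libraries lay within 31.6 to 36.8 TPM, above all others, and the 32-cell libraries within 16.9 to 18.3 TPM. LCR73 (AT2G02147), of the low-molecular-weight cysteine-rich family, had 5.02, 6.01 and 9.79 TPM at 8-cell, 28.7, 36.7 and 32.4 TPM at 16-cell and 14.4, 18.5 and 18.7 TPM at 32-cell. Its 16-cell and 32-cell libraries were above those of every other stage and did not overlap with each other.

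CAM8 (AT4G14640), a calmodulin-like gene, had 15.8, 17.9 and 16.4 TPM at 8-cell, 19.7, 11.4 and 21.5 TPM at 16-cell and 2.17, 0.392 and 1.24 TPM at 32-cell, so that the 8-cell and 16-cell libraries lay far above the 32-cell ones. One 2/4-cell library, at 11.5 TPM, reached their range. EDA18 (AT2G34920), a RING/U-box gene, had 34.4, 21.95 and 34.1 TPM at 8-cell and 62.99, 16.02 and 4.55 TPM at 16-cell, so 16-cell replicate 1 alone was above the 8-cell libraries. HAI1 (AT5G59220) encodes a clade A protein phosphatase that restrains abscisic acid signalling, and PSK1 (AT1G13590) a precursor of the growth peptide phytosulfokine. In both genes the 16-cell and 32-cell libraries overlapped. The 32-cell mean was 70.5% of the 16-cell mean for HAI1 and 111% for PSK1. HAI1 had 24.8 ± 7.42 TPM at 16-cell and 17.5 ± 4.56 at 32-cell, and PSK1 had 181 ± 50.2 TPM at 16-cell and 201 ± 52.3 at 32-cell (SD, n = 3).

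Members linked to the cytoskeleton or chromosomes numbered 5, with the highest mean at 16-cell in 4 and at 32-cell in 1. AT3G44960, annotated as a shugoshin, a class of protein that protects cohesion of sister chromatids, had 0.248, 0.773 and 0.271 TPM at 8-cell, 9.90, 17.2 and 28.9 TPM at 16-cell and 9.10, 15.1 and 14.7 TPM at 32-cell. Every 8-cell library was below 1 TPM and every 16-cell library at or above 9.9 TPM. ACI1 (AT5G01370), also listed as a TON1 recruiting motif gene, had 11.9, 7.03 and 11.3 TPM at 8-cell and 19.5, 72.9 and 48.4 TPM at 16-cell. WVD2 (AT5G28646), of a family of microtubule-binding proteins, had 3.11, 7.04 and 10.04 TPM at 8-cell and 5.74, 24.03 and 20.2 TPM at 16-cell, and these overlapped. AT5G16720, named myosin binding protein 3, and AT1G18265 both carry the DUF593 domain according to the reference. AT1G18265 had 1.45, 2.32 and 11.6 TPM at 8-cell, 15.6, 16.6 and 18.6 TPM at 16-cell and 23.1, 19.2 and 14.1 TPM at 32-cell, while AT5G16720 had 6.86, 18.1 and 8.75 TPM at 16-cell.

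**Figure D3:**
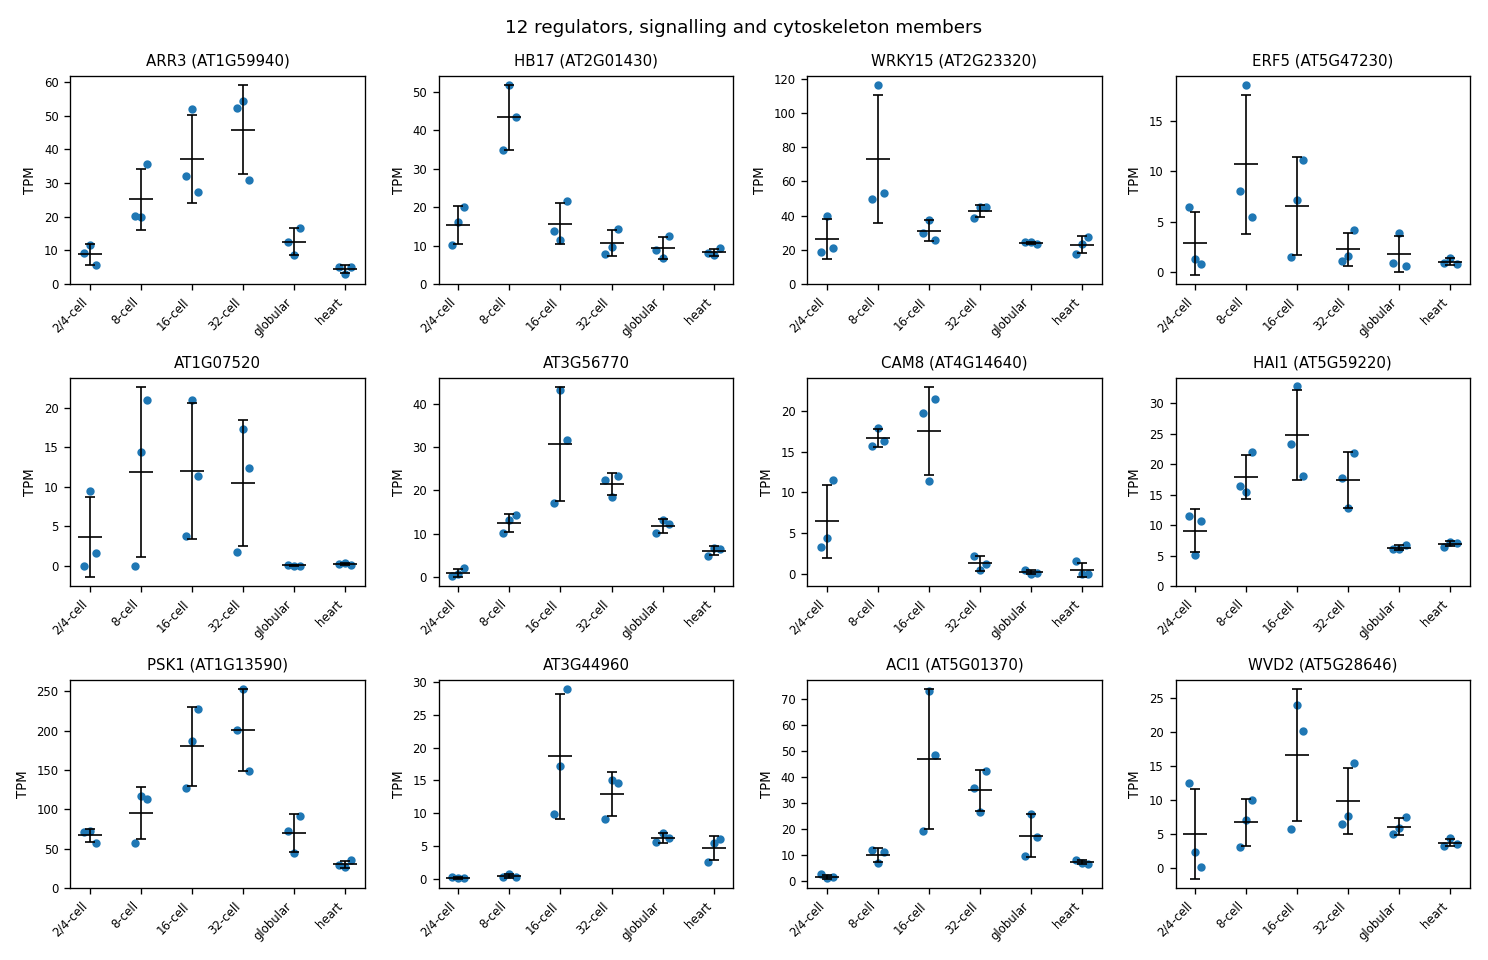
TPM of 12 further members that encode regulators, signalling proteins or proteins linked to the cytoskeleton or chromosomes, by stage, with 1 dot per library and bars for mean ± SD (n = 3). HB17 was highest in the 8-cell libraries, CAM8 was under 2.2 TPM from the 32-cell stage on, and ARR3 and PSK1 had their highest means at 32-cell.

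Membrane and lipid genes made up 6 members. AT1G05370, a Sec14p-like phosphatidylinositol transfer gene, stood at 27.3, 8.19 and 7.92 TPM at 2/4-cell, then 65.6, 50.7 and 53.2 at 8-cell, 30.4, 31.03 and 25.4 at 16-cell, 6.01, 5.14 and 8.57 at 32-cell, 3.95, 4.60 and 2.99 at globular, and 4.30, 1.56 and 2.42 at heart. Its 8-cell, 16-cell and 32-cell libraries did not overlap with each other. AT3G54120, a reticulon gene of a family that shapes the endoplasmic reticulum, had 7.61, 6.49 and 21.4 TPM at 8-cell, 29.8, 26.7 and 30.3 TPM at 16-cell and 10.1, 8.48 and 11.5 TPM at 32-cell. MLP28 (AT1G70830), a major latex protein-like gene, had 10.8, 3.08 and 4.40 TPM at 8-cell, 27.9, 76.4 and 43.7 TPM at 16-cell and 66.3, 102 and 51.5 TPM at 32-cell, so its 16-cell and 32-cell libraries were above all others and overlapped with each other. AT3G18570, of the oleosin family of oil body proteins, had 36.6 ± 8.40 TPM at 8-cell and 38.5 ± 5.29 at 16-cell (SD, n = 3), the 2 nearly level. AT4G32870, a lipid transport superfamily gene, was the most abundant of the group with 240.5 ± 78.8 TPM at 16-cell, and the lipid-binding gene AT5G37740 had 28.05 ± 3.39 TPM there and 30.3 ± 5.74 at 32-cell (SD, n = 3).

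Enzymes and cell surface proteins made up 10 members, 4 of which had their highest mean at 32-cell. CYP81D2 (AT4G37360), a cytochrome P450 gene, had the largest 32-cell mean relative to its 16-cell mean of all members, with 5.82, 17 and 8.81 TPM at 16-cell and 72.3, 23.6 and 11.9 TPM at 32-cell, where replicate 1 alone exceeded 24 TPM. GLN1;5 (AT1G48470), a glutamine synthetase gene, had 26.2, 28.6 and 25.9 TPM at 16-cell and 51.6, 35.1 and 35.1 TPM at 32-cell. AGP14 (AT5G56540), an arabinogalactan protein gene, had 4.08, 20.05 and 16.5 TPM at 16-cell and 12.5, 11.3 and 27.2 TPM at 32-cell. In the acid phosphatase gene AT4G29270, also higher in mean at 32-cell, these libraries overlapped, with 39.9, 78.4 and 77.9 TPM at 16-cell and 74.7, 64.2 and 68 TPM at 32-cell. The glycine-rich protein gene AT2G30560 met the rule whichever 1 library was left out, with 83.3 ± 21.9 TPM at 16-cell and 82.5 ± 31.1 at 32-cell (SD, n = 3), and at most 4.24 TPM at heart. AT3G14780, listed as a callose synthase, had 25.97, 9.66 and 13.1 TPM at 16-cell, and the esterase gene AT5G45920 had 13.7, 10.6 and 9.41 TPM. The 32-cell libraries of both lay below all their 16-cell ones. The UDP-glycosyltransferase gene AT5G14860 had 15.1 ± 2.77 TPM at 16-cell. UXS6 (AT2G28760), a gene of UDP-xylose synthesis, had 19.2 ± 6.43 TPM at 8-cell (SD, n = 3 for both) and lost membership in 6 of the 18 omissions, the most of any member.

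Of the remaining members, 2 belong to the ribosomal protein S19 family and 13 had little or no annotated function. Products described as uncharacterized, unknown or hypothetical made up 12 of the 52 members (23.1%), against 11.4% of nuclear genes in the table, untested ones included. Among the 12 are AT5G16720, AT1G18265 and AT2G37880, which have a family or domain name but a product called of unknown function. Nothing is read from this share. AT5G63070, the other S19 family gene, had 6.24, 30.6 and 15.7 TPM at 16-cell and 0.297, 12.5 and 1.18 TPM at 2/4-cell, so 2/4-cell replicate 2 exceeded 16-cell replicate 1. AT2G01023, near AT2G01008 with 2 annotated ribosomal RNA genes between them, was the most abundant member. It had 1524, 4277 and 1641 TPM at 16-cell and 2052, 6932 and 2575 TPM at 32-cell. AT5G61412 followed with 506, 807 and 1171 TPM at 16-cell. AT1G53541, which overlaps an annotated small nucleolar RNA gene, had 244, 282 and 416 TPM, AT2G01008, listed as a maternal effect embryo arrest protein, had 77.4, 219 and 168 TPM and AT1G06475 had 73.7, 36.1 and 41.98 TPM at that stage. For 3 genes of little known function the mean was highest of all stages at 8-cell. AT2G37880 of the MIZU-KUSSEI-like family had 39.1, 38.5 and 66.3 TPM there, AT2G07738 had 13.1, 12.6 and 17.1 TPM and AT5G57820 had 4.92, 18.6 and 10.6 TPM. AT1G64584 had 19.3, 14.96 and 17.3 TPM at 32-cell and at most 4.28 TPM in any 2/4-cell, globular or heart library. AT1G12411 had 10.99, 17.9 and 6.01 TPM, AT4G24615 had 3.24, 12.9 and 29.8 TPM and AT1G19380 had 6.60, 8.77 and 14.8 TPM at 16-cell, and the libraries of AT4G24615 were the most spread of these.

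Members made up 0.189% of all genes with deposited values. Of 28 cytokinin genes 2 were members (7.14%), of 14 brassinosteroid genes 1 (7.14%) and of 20 wounding and touch genes 1 (5%). The lists were chosen with earlier results of these data known, and nothing is read from these shares. None of 25 auxin response genes, 15 heat shock genes, 8 phenylpropanoid genes, 19 seed coat, 13 endosperm, 10 embryo or 4 suspensor markers met the rule. Annotated genes that overlap a member could share its reads. None of the 9 table genes that overlap a member was itself a member, and whether reads were shared was not tested. Members with such a partner were AT1G06475, AT1G07520, LCR73, EDA18, AT3G22183, AT3G54120, ROPGEF3, AT4G24615 and AT5G57820. How strand was used in quantification is not given in the sources used here.

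Between the 16-cell and 8-cell stages the shugoshin gene AT3G44960, MLP28 and ROPGEF3 were called higher and BEN1 lower. The rule used the larger of these means, a choice that favours a difference between them in either direction, so the count of calls is a description of the members and nothing is read from it. With limma on log2(TPM + 1) of all libraries and 1 weight per stage, 3 members were higher and 1 lower at 16-cell (4 of 52), against 0.654% of 18338 genes called in either direction, 0.464% higher and 0.191% lower. AT3G44960, the shugoshin gene, was 12.8-fold higher, with 18.7 ± 9.56 TPM at 16-cell and 0.431 ± 0.297 TPM at 8-cell (SD, n = 3; limma adjusted p = 8.01e-04). MLP28 was 7.26-fold higher (limma adjusted p = 0.0223) and ROPGEF3 6.11-fold higher (limma adjusted p = 0.0392). BEN1 was 3.43-fold lower, with 119 ± 50.2 TPM at 16-cell and 398 ± 106 TPM at 8-cell (SD, n = 3; limma adjusted p = 0.0105). Folds are on the scale of TPM + 1, which understates changes of low genes.

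The call of AT3G44960 was kept whichever 1 library was left out. Those of BEN1, MLP28 and ROPGEF3 were lost without 16-cell replicate 2 (adjusted p = 0.277, 0.462 and 0.438). MLP28 was also not called without 8-cell replicate 2 or 3, and ROPGEF3 without 2/4-cell replicate 2 or 3, 8-cell replicate 1 or 2, 16-cell replicate 1 or 32-cell replicate 2 or 3. With equal weights 9 members were called, and with only the 8-cell and 16-cell libraries in the fit 0 were, although 24 members and 9.13% of all tested genes then had an unadjusted p below 0.05. With all stages in the fit, such a p was found for 20 members and 9.1% of genes. Over all tested genes 9 were called without 16-cell replicate 2, against 120 with all libraries.

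Between the 32-cell and 16-cell stages limma called no member higher and 3 lower, against 4.86% of genes called higher and 0.48% lower (5.34% in all). An unadjusted p below 0.05 was found for 11 of the 52 members and 19.2% of all tested genes. The median log2 change was -0.57 over the members and 0.24 over all tested genes. Members had to be high at 8-cell or 16-cell, which favours lower values at 32-cell, so the direction is partly set by the choice. CAM8 was 8.36-fold lower, with 1.27 ± 0.888 TPM at 32-cell and 17.5 ± 5.40 TPM at 16-cell (SD, n = 3; limma adjusted p = 0.00138), a call kept whichever 1 library was left out. AT1G05370 was 4.01-fold lower (limma adjusted p = 0.00428), a call lost without 16-cell replicate 2 (adjusted p = 0.0656). AT3G14780 was 4.61-fold lower (limma adjusted p = 0.00966), a call lost without 16-cell replicate 1 (adjusted p = 0.116). None of the 12 members with their highest mean at 32-cell was called higher there than at 16-cell.

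Between the globular and 32-cell stages 30 of 52 members were lower and 0 higher with limma, against 5.75% of genes called lower and 8.29% higher (14% in all). The median log2 change was -1.22 over the members and 0.13 over all tested genes. Globular means had to be low for a gene to be a member, so the choice favours this direction. Nothing about the members is read from the count, the median or the p values of single members. The values describe how far each gene stood at 32-cell above its low globular level. Falls ran from 1.73-fold to 9.46-fold. With median-ratio scaling 727 genes of all tested were called higher and 1333 lower, against 1520 and 1054 as deposited, and 33 members were lower. The consecutive comparisons share libraries and are not independent.

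Since low globular means were required, the choice favours small p values for every fall named here. The largest fall was that of AT2G01008, 9.46-fold, with 18.6 ± 1.53 TPM at globular and 216 ± 153 TPM at 32-cell (SD, n = 3; limma adjusted p = 3.22e-06). CYP81D2 fell 8.41-fold, AT1G07520 8.29-fold and AT2G01023 7.81-fold (limma adjusted p = 9.22e-04, 0.00467 and 2.34e-04). MLP28 fell 5.92-fold, to 12.4 ± 7.59 TPM at globular, against 73.4 ± 26.1 TPM at 32-cell (SD, n = 3; limma adjusted p = 1.23e-04). The Dof gene AT5G02460 fell 4.02-fold (limma adjusted p = 8.65e-04), and among signalling members PSK1 fell 2.91-fold and HAI1 2.48-fold (limma adjusted p = 4.15e-04 and 3.65e-04). AT4G24615 fell 5.67-fold (limma adjusted p = 0.0345), a call lost without 32-cell replicate 1 or 2 or globular replicate 2 or 3.

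Of the 30 calls 21 were kept whichever 1 library was left out, and 15 of these under every other setting tried as well. Members were not chosen again in these refits, so the required low globular means favour keeping the calls. The other 9, which were WRKY15, AT3G56770, AT3G44960, ACI1, UXS6, AT3G14780, ROPGEF3, AGP14 and AT4G24615, each lost the call without at least 1 of the 32-cell or globular libraries, in the case of WRKY15 without globular replicate 3. With equal weights 16 members were called, among 355 genes in all, against 2574 with 1 weight per stage.

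**Figure D4:**
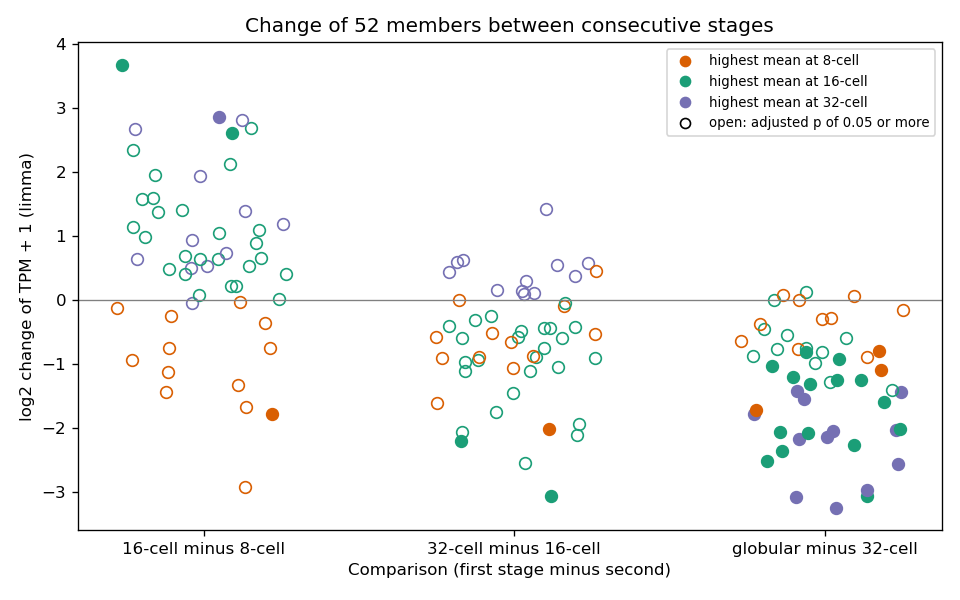
Each dot is 1 of the 52 members, and the vertical axis is the limma log2 change of TPM + 1 for the comparison named below it, first stage minus second. Colour marks the stage of the highest mean and filled dots an adjusted p under 0.05, of which there are 4, 3 and 30 from left to right, the 30 in the globular comparison all below 0.

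Of 19 tested cytokinin genes 2 were higher and 5 lower at globular than at 32-cell by the same limma fit, against 8.29% and 5.75% of all tested genes. Falls were not particular to this list, as 8 of 15 heat shock, 5 of 18 seed coat and 2 of 4 suspensor genes were lower. Of 16 auxin response genes, 4 were higher and 1 lower. Of the 5 lower cytokinin genes, RR5 and ARR3 are members, which the rule required to be low at globular. RR5 fell 3.27-fold and ARR3 3.44-fold (limma adjusted p = 1.96e-04 and 2.67e-04), both calls kept whichever 1 library was left out. The type-A regulators ARR7 and ARR4, no members, were also lower. ARR7 had 6.20 ± 2.35 TPM at globular and 13.1 ± 2.66 TPM at 32-cell (limma adjusted p = 0.0119), and ARR4 had 10.5 ± 1.31 TPM at globular and 19.4 ± 5.54 TPM at 32-cell (SD, n = 3; limma adjusted p = 0.0218). Both calls were lost without 32-cell replicate 3, and that of ARR4 also without globular replicate 3. The fifth was CKX7, of the cytokinin oxidases that degrade the hormone, whose call was lost in 13 of 18 omissions. The higher ones were LOG3 and LOG8, cytokinin-activating genes, whose calls were lost in 4 and 10 of 18 omissions. At 16-cell against 8-cell CKX5 was higher and LOG4 lower, against 0.464% and 0.191% of all tested genes, and neither call was kept when 16-cell replicate 2 was omitted. At 32-cell against 16-cell CKX7 and LOG7 were higher and ARR4 and ARR15 lower, against 4.86% and 0.48% of all tested genes, and of these the call of CKX7 alone was kept whichever library was left out.

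Of 12 tested brassinosteroid genes 1 was higher and 1 lower at 16-cell than at 8-cell, against 0.464% and 0.191% of all tested genes. The lower one was BEN1, a member through its high 8-cell mean. That choice favours a lower value at 16-cell, and nothing is read from these counts. The higher one was DWF4, an enzyme gene of brassinosteroid synthesis, with 99.5 ± 18 TPM at 16-cell and 42.6 ± 8.55 TPM at 8-cell (SD, n = 3; limma adjusted p = 0.0228). Its call was lost without 8-cell replicate 1 or 2 or 16-cell replicate 1 or 2. At 32-cell against 16-cell 2 genes of this list were higher, against 4.86% of all tested genes, the synthesis gene DWF1 and the receptor gene BRI1. Omitting 32-cell replicate 1 ended both calls, omitting 16-cell replicate 2 that of DWF1, and omitting 16-cell replicate 1 or 3 that of BRI1. At globular against 32-cell DWF1 was higher, against 8.29% of all tested genes, a call kept in every omission. BEN1 had 62.98 ± 6.12 TPM at globular and 61.9 ± 22.3 TPM at 32-cell (SD, n = 3).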

How the data were processed

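Embryos were isolated by hand, mRNA was captured on beads and cDNA was amplified with a kit for small amounts of RNA, per the labels. The authors' tools were Trim Galore 0.6.6 for trimming and kallisto 0.44.0 for quantification, with TAIR10 as the build, per the submitters' processing notes. Their deposited values are gene-level TPM. The step from transcripts to genes is not given in the sources used here. Each column sums to 1000000 TPM, so depth and counting error are unknown, and a share can move because other transcripts move.

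The members, gene lists and tests were chosen with earlier results of these data known. The rule was applied to stage means. Tested genes, 18338 with all 52 members among them, reached 1 TPM in 3 libraries or more. All libraries entered one limma fit of stage means on log2(TPM + 1), with limma 3.58.1 in R 4.3.3, with 1 weight per stage, an intensity trend and p values adjusted by the Benjamini-Hochberg method over all tested genes. Tests were two-sided, with calls at an adjusted p under 0.05. The fit was tested on simulated data in which 200 genes were given a log2 change of 2 up or down. It recovered 72%, 79.5% and 92% of them for the comparisons in order of stage. Of its calls, 4.64%, 3.05% and 5.15% were false. In order of stage the weights were 0.347, 0.822, 0.541, 1.51, 2.14 and 2.00.

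Names, products and overlaps of genes come from the RefSeq annotation of TAIR10.1, which matched all 52 members and 27445 of 27564 genes. As the authors used TAIR10, no coordinates, promoters or proteins are given, and a planned search of promoters for motifs was left out. Genes were to be named by level, ratio, change, list or neighbourhood, and in the end all 52 members are named. Role groups were formed after the values were seen.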

Additional observations from a re-analysis of the deposited data

How the results depend on the processing

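The number of members depended on the rule's limits and on scaling. It was 95 with a fold of 2 in place of 2.5, 22 with a fold of 3, 84 with a minimum of 5 TPM, 27 with 20 TPM and 86 with median-ratio scaling, which kept 51 of the 52. With medians it was 65, of which 41 were among the 52. Leaving out 1 library gave 43 (without 16-cell replicate 2) to 61 (without 16-cell replicate 1). Members with the larger mean at 8-cell, 14 as reported, numbered 29 and 8 with folds of 2 and 3, 24 and 6 with minimums of 5 and 20 TPM, and 12 to 22 without 1 library. Those with the highest mean at 32-cell, a count and its alternatives added after the data were seen, numbered 12, 4 with a fold of 3, and 6 (without 16-cell replicate 2) to 16 (without globular replicate 3).

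Members called at 16-cell against 8-cell, 4 as reported, were 9 with equal weights, 9 with 1 weight per library, 0 with only the stages compared and 1 to 6 without 1 library. At 32-cell against 16-cell, 3 as reported became 1 and 6 with pseudocounts of 0.1 and 5, 6 with median-ratio scaling, 8 with quantile normalization, 6 with equal weights, 7 with 1 weight per library, 6 with only the stages compared and 2 to 6 without 1 library. At globular against 32-cell, 30 as reported became 16 with equal weights and 23 to 34 without 1 library. Median-ratio scaling moved the median log2 change of all genes from 0.24 to 0.03 at 32-cell against 16-cell and from 0.13 to -0.02 at globular against 32-cell. At 32-cell against 16-cell that scaling called 625 genes higher and 256 lower, against 891 and 88 as deposited. No called member changed direction. Calls of single members were lost in 17 of 112, 4 of 84 and 60 of 840 refits, for the comparisons in order of stage.

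Deviations of libraries with the same replicate number in consecutive stages correlated between -0.139 and 0.21, the latter for replicate 1 at 8-cell and 16-cell. Such correlations cannot decide whether libraries with the same number were handled together. With the replicate number as a block 5, 4 and 27 members were called in the 3 comparisons in order of stage. Over all tested genes that block gave 128, 1043 and 1615 calls, against 120, 979 and 2574 without it. Over all genes the counts were 286 with equal weights against 120 at 16-cell against 8-cell, and 355 against 2574 at globular against 32-cell. As no depth is known, a gene listed at 0 has no detection limit here.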

Other observations

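AT2G01008 and AT2G01023, the members with the largest and a near-largest fall at the globular stage, lie near each other. In the RefSeq annotation of TAIR10.1, 2 ribosomal RNA genes stand between them and, of the genes with deposited values, AT2G01021, which was no member. AT2G01008 had 149, 391 and 107 TPM at 32-cell and 77.4, 219 and 168 TPM at 16-cell, and AT2G01023 had 2052, 6932 and 2575 TPM at 32-cell and 1524, 4277 and 1641 TPM at 16-cell. Replicate 2 was the highest of each stage for both genes. AT2G01021 was also highest in replicate 2 of both stages, with 6053, 14883 and 4654 TPM at 32-cell and 3409, 7001 and 1433 TPM at 16-cell. At 2/4-cell it had 10832, 8917 and 4962 TPM, where both members were lower than at 32-cell.

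The other neighbouring pair of members was AT4G32870 and HB-8, with no table gene between them. Their courses differed, as HB-8 had 3.36 ± 1.19 TPM at 16-cell and 12.6 ± 1.98 TPM at 8-cell, and AT4G32870 had 240.5 ± 78.8 TPM at 16-cell and 168 ± 35.6 TPM at 8-cell (SD, n = 3). 

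Among the 38 members with the larger mean at 16-cell, the highest of the 3 16-cell libraries was replicate 2 in 20, replicate 3 in 13 and replicate 1 in 5, and replicate 1 was the lowest in 25. Among the 14 with the larger mean at 8-cell, the highest library was replicate 2 in 6 and replicates 1 and 3 in 4 each.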
